A study of Rattus norvegicus with 8 samples.

Results

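The endoplasmic reticulum (ER) stress genes are 10 genes that mark the unfolded protein response: *Hspa5*, *Hsp90b1*, *Calr*, *Pdia4*, *Sdf2l1*, *Atf4*, *Xbp1*, *Ddit3*, *Trib3*, and *Chac1*. They were picked by gene symbol among the 32883 genes of the deposited tables, each symbol matched 1 Ensembl gene, and all 10 were among the 13937 genes with enough reads to be tested. Polyadenylated RNA of the right Achilles tendon was sequenced from 8 wild-type male Sprague-Dawley rats aged 8 to 10 weeks. In the 12 h p.r. group, 4 rats ran for 1 hour on a treadmill set to 20 m/min and a 10° incline and were killed 12 hours later. The other 4 rats, the naive control (NC) group, rested in their cages and were killed at the same time. The comparison asks how the tendon transcriptome stood 12 hours after a single bout of running.

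When proteins misfold in the ER, the membrane sensors IRE1, PERK, and ATF6 signal to the nucleus. IRE1 splices the *Xbp1* mRNA, PERK slows translation while favoring that of *Atf4*, and cleaved ATF6 enters the nucleus as a transcription factor; together they raise chaperones that refold proteins and, if the stress lasts, the ATF4 target *Ddit3* (CHOP) and its partners. Tendon fibroblasts secrete large amounts of collagen, which is folded and hydroxylated in the ER with the help of many of these chaperones. Counts per gene show how much RNA is present and not whether *Xbp1* was spliced or *Atf4* translated.

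Several of these genes carry the ER stress response element (ERSE), the motif that ATF6 and XBP1 are known to read together with NF-Y, near their start sites. The ERSE was searched as CCAAT, 9 bases of any kind, and CCACG on both strands of the RefSeq promoter windows of build GRCr8, which reach from 250 bases before to 50 bases after each start. All 10 genes had a window, and 4 of them, *Hspa5*, *Hsp90b1*, *Calr*, and *Xbp1*, held the motif, compared with 22 of all 33469 windows (0.0657%). The matches are printed 5′ to 3′ on the gene's strand with 15 bases on either side, the motif's fixed letters in capitals, since they show which of the 10 genes share this sequence. In *Calr* and in the second match of *Hsp90b1* the motif lies on the opposite strand and reads CGTGG, 9 bases, ATTGG.
Hspa5 (chr3:38452958-38453006, plus strand): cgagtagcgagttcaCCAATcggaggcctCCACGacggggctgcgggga
Xbp1 (chr14:84604543-84604591, plus strand): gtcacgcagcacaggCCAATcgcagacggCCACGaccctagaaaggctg
Hsp90b1, first match (chr7:23012436-23012484, minus strand): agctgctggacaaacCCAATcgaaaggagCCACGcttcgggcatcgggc
Hsp90b1, second match (chr7:23012332-23012380, minus strand): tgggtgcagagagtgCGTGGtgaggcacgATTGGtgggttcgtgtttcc
Calr (chr19:40213120-40213168, plus strand): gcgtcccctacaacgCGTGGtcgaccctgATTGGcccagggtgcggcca

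Counted from the start site, the first base of the motif was at position -43 in *Hspa5*, -65 in *Xbp1*, -176 and -72 in *Hsp90b1*, and -232 in *Calr*. The letters of 3 other response motifs were not found in the windows of the 10 genes: the ERSE-II (ATTGG, 1 base, CCACG), the core of the XBP1 element (TGACGTGG), and the C/EBP-ATF element that ATF4 binds (TGATG, 1 base, AAT). These motifs are in 0.0508%, 0.595%, and 1.09% of all windows. A match describes letters and is no evidence of binding in tendon.

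The 10 genes showed no change between the groups that passed the test. All 5 chaperones and folding factors had a higher mean in the 12 h p.r. group, with fitted differences between 0.17 and 0.40 on the log2 scale, while the transcription factors *Atf4*, *Xbp1*, and *Ddit3* lay between -0.18 and 0.09. By the quasi-likelihood test of edgeR with Benjamini-Hochberg adjustment, 0 of the 10 genes passed both thresholds, an adjusted p under 0.05 and at least a 2-fold difference, as did 0 of all genes tested (0%), and their smallest adjusted p was 0.561. At an unadjusted p under 0.05 the count was again 0 of 10, where 9.51% of all genes reached it. DESeq2 called 0 of the 10 genes (0.134% of all its genes), and 1, *Chac1*, had an unadjusted p under 0.05 (6.5% of all its genes). In total, 8 of the 10 genes were fitted higher and 2 lower with a median of 0.19, beside a median of 0.02 over all genes tested, of which 7557 were higher and 6380 lower. For each of the 10 genes the values of the groups overlapped, whereas they did not for 6.06% of all genes tested.

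The libraries held 7350509 to 12951397 counted reads. Levels are given as CPM, counts scaled to a library of 1000000 with TMM factors, and each rat is named by the replicate number of its group. All 10 tenocyte markers, including the tendon transcription factor *Scx* and the tendon surface protein *Tnmd*, were detected in all rats. They summed to 20531 to 56640.0 CPM after running and to 34725 to 52148 CPM in NC. *Col1a1* alone had 11092 to 37602 CPM. The measured skeletal muscle, endothelial, leukocyte, and adipocyte markers were also detected in all rats, so detection alone does not bear out the labelled tissue. Rat 3 of the 12 h p.r. group stood apart: its 8 measured skeletal muscle markers summed to 59230.2 CPM, where the other 7 rats had at most 10643, and its mean log2 tenocyte level was the lowest of the 8 rats (8.96 against 9.26 to 10.2). Results that rest on this rat are therefore given with and without it. In tissue RNA, fewer cells of a type and less RNA per cell cannot be told apart.

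*Hspa5* (BiP, ENSRNOG00000018294) encodes the main ER chaperone of the HSP70 family, which also holds the stress sensors inactive. Its levels in the 12 h p.r. rats 1 to 4 were 586, 818, 350, and 675 CPM, and in the NC rats 1 to 4 they were 551, 475, 616, and 515 CPM. The NC rats lay within 1.3-fold of each other, while the running rats held both the highest and the lowest of the 8 values, 2.33-fold apart. The means were 607 ± 196 CPM after running and 539 ± 59.9 CPM in NC (SD, n = 4 each), and the log2 difference of 0.17 (SE 0.24, 95% interval -0.36 to 0.70, adjusted p = 0.847 by edgeR) was smaller than this spread.

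*Hsp90b1* (GRP94, ENSRNOG00000026963), the ER member of the HSP90 chaperones, had 526, 652, 358, and 538 CPM in the running rats and 440, 353, 463, and 397 CPM in the NC rats. Running rats 1, 2, and 4 were above every NC rat, and rat 3 was below all NC rats but rat 2. Its log2 difference was 0.33 (SE 0.19, 95% interval -0.09 to 0.75, adjusted p = 0.617 by edgeR).

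*Calr* (calreticulin, ENSRNOG00000003029) is the soluble lectin chaperone that holds new glycoproteins and stores calcium in the ER. It had the highest counts of the 10 genes, with 970, 1000.4, 609, and 956 CPM after running and 824, 642, 851, and 764 CPM in NC. Again 3 running rats were above all NC rats, and rat 3 was below all of them. The log2 difference was 0.20 (SE 0.18, 95% interval -0.22 to 0.61, adjusted p = 0.763 by edgeR).

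*Pdia4* (ERp72, ENSRNOG00000006228), a protein disulfide isomerase, had 170, 221, 115, and 174 CPM in the running rats against 140, 116, 175, and 154 CPM in NC. Only running rat 2 was above all NC rats, and rat 3 was below all of them (log2 difference 0.22, SE 0.20, adjusted p = 0.759 by edgeR). *Sdf2l1* (ENSRNOG00000001859), a small cofactor of BiP, had 22.8, 30.0, 13.8, and 24.9 CPM after running and 18.9, 11.5, 17.8, and 20.6 CPM in NC. Here 3 running rats were above all NC rats, and the log2 difference was 0.40 (SE 0.25, 95% interval -0.16 to 0.97, adjusted p = 0.648 by edgeR).

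**Figure D1:**
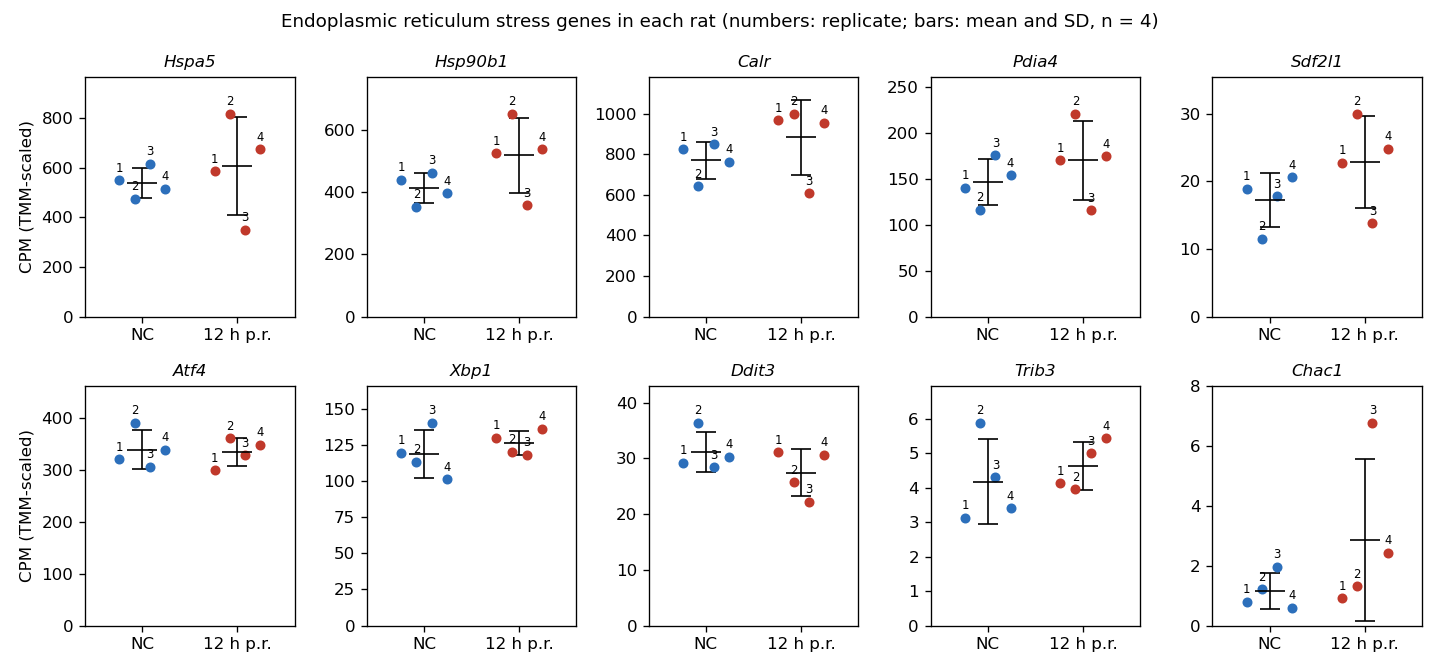
CPM (TMM-scaled, linear axis from 0) of each of the 10 genes in the 4 NC rats (blue) and the 4 rats at 12 h p.r. (red), each point 1 rat with its replicate number, bars giving the mean and SD. In the upper row, the 5 chaperones, running rat 3 is the lowest running rat in every panel, and in the panel of *Chac1* the same rat is the highest at 6.78 CPM.

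The transcription factors were steadier within the groups, *Ddit3* the least so. *Atf4* (ENSRNOG00000017801), the effector of the PERK branch and of the wider integrated stress response, had 298, 360, 327, and 348 CPM in the running rats and 320, 390, 305, and 338 CPM in NC. The 8 rats stayed within 1.31-fold, and the log2 difference was -0.02 (SE 0.12, 95% interval -0.29 to 0.25, adjusted p = 0.971 by edgeR).

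*Xbp1* (ENSRNOG00000010298), the effector of the IRE1 branch, had 130, 120, 118, and 136 CPM after running and 119, 113, 140, and 101 CPM in NC. All 4 running rats lay inside the NC range (log2 difference 0.09, SE 0.12, 95% interval -0.17 to 0.35, adjusted p = 0.835 by edgeR). *Ddit3* (CHOP, ENSRNOG00000006789), linked to cell death under lasting ER stress, had 31.2, 25.7, 22.3, and 30.7 CPM after running and 29.3, 36.4, 28.5, and 30.3 CPM in NC. No running rat was above the NC range and 2 were below it, with a log2 difference of -0.18 (SE 0.13, 95% interval -0.48 to 0.13, adjusted p = 0.709 by edgeR).

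*Trib3* and *Chac1*, both switched on by ATF4 and CHOP, had few reads. *Trib3* (ENSRNOG00000007319), a pseudokinase that binds AKT, had 4.14, 3.95, 4.998, and 5.44 CPM in the running rats and 3.13, 5.89, 4.30, and 3.40 CPM in NC, from 30 to 58 reads per rat. The running rats lay inside the NC range (log2 difference 0.16, SE 0.24, adjusted p = 0.863 by edgeR). *Chac1* (ENSRNOG00000014387), which degrades glutathione, had 0.906, 1.32, 6.78, and 2.44 CPM after running and 0.802, 1.23, 1.96, and 0.595 CPM in NC. These values rest on 7, 10, 57, and 26 reads and on 10, 10, 26, and 7 reads. The log2 difference of 1.31 (SE 0.65, 95% interval -0.15 to 2.77, adjusted p = 0.561 by edgeR) was the largest of the 10 genes, and without running rat 3 it was 0.46 (adjusted p = 0.766).

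An exact 2-sided permutation test of log2(CPM + 0.5) over the 70 splits of the rats, whose smallest possible p is 0.0286, gave between p = 0.171 for *Hsp90b1* and p = 0.886 for *Atf4* over the 10 genes. Among the 9541 tested genes with a mean of at least 10 CPM, the median SD within the groups was 0.19 on the log2 scale. The SD of the 5 chaperones ranged from 0.27 for *Calr* to 0.42 for *Sdf2l1*, above that of 75.5% to 89.0% of these genes. *Atf4* and *Xbp1* had an SD of 0.14 and 0.15, above that of only 26.1% and 35.1%, while *Ddit3*, at 0.195, was above 53.7%.

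The chaperones moved together from rat to rat. Averaged over the 5 genes, the log2 level relative to the NC mean was 0.30, 0.62, -0.35, and 0.37 in the running rats and 0.07, -0.30, 0.18, and 0.05 in the NC rats. Running rats 1, 2, and 4 were thus above all NC rats, and running rat 3 was below all of them. Across the 8 rats, the log2 CPM of *Hspa5* followed that of *Pdia4* (Pearson's r = 0.92, Spearman's rho = 0.95, exact permutation p = 0.00122 for r and p = 0.00114 for rho) and that of *Calr* (r = 0.91, rho = 0.93, exact permutation p = 0.000248 and p = 0.00223). It also followed *Hsp90b1* (r = 0.91, rho = 0.95, exact permutation p = 0.00154 and p = 0.00114) and *Sdf2l1* (r = 0.83, rho = 0.81, exact permutation p = 0.0125 and p = 0.0218). Over the 9 relations computed, the Benjamini-Hochberg adjusted p of these 4 was between 0.00223 and 0.0281 for the exact permutation test of r. The share of all genes tested that follow *Hspa5* this closely was not computed. Whether the relation is particular to the chaperones was therefore not tested.

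The other 5 genes did not pass this test with *Hspa5*. Pearson's r was 0.40 for *Xbp1*, 0.19 for *Ddit3*, 0.04 for *Atf4*, -0.23 for *Trib3*, and -0.45 for *Chac1*, with adjusted exact permutation p between 0.459 and 0.928. Spearman's rho was 0.74 for *Xbp1* and between -0.17 and 0.12 for the rest (adjusted exact permutation p = 0.0825 for *Xbp1* and 0.992 or above for the rest). Without running rats 2 and 3, the rats farthest from the median of *Hspa5*, r over the remaining 6 rats was 0.92 for *Hsp90b1*, 0.88 for *Calr*, 0.87 for *Pdia4*, 0.83 for *Xbp1*, and 0.75 for *Sdf2l1*. The adjusted exact permutation p was then 0.0708 for the first 3 of them, 0.103 for *Xbp1*, and 0.14 for *Sdf2l1*. For the rest, r was 0.69 for *Chac1*, -0.61 for *Ddit3*, -0.51 for *Atf4*, and 0.10 for *Trib3* (adjusted exact permutation p of 0.202 or above). So with 6 rats none of the relations passed, and only the chaperones kept coefficients of similar size. *Xbp1* then lay among the chaperones in r, so their separation from the other 5 genes depended on running rats 2 and 3. The points share libraries, and with 4 rats a group no correlation within a group is given.

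**Figure D2:**
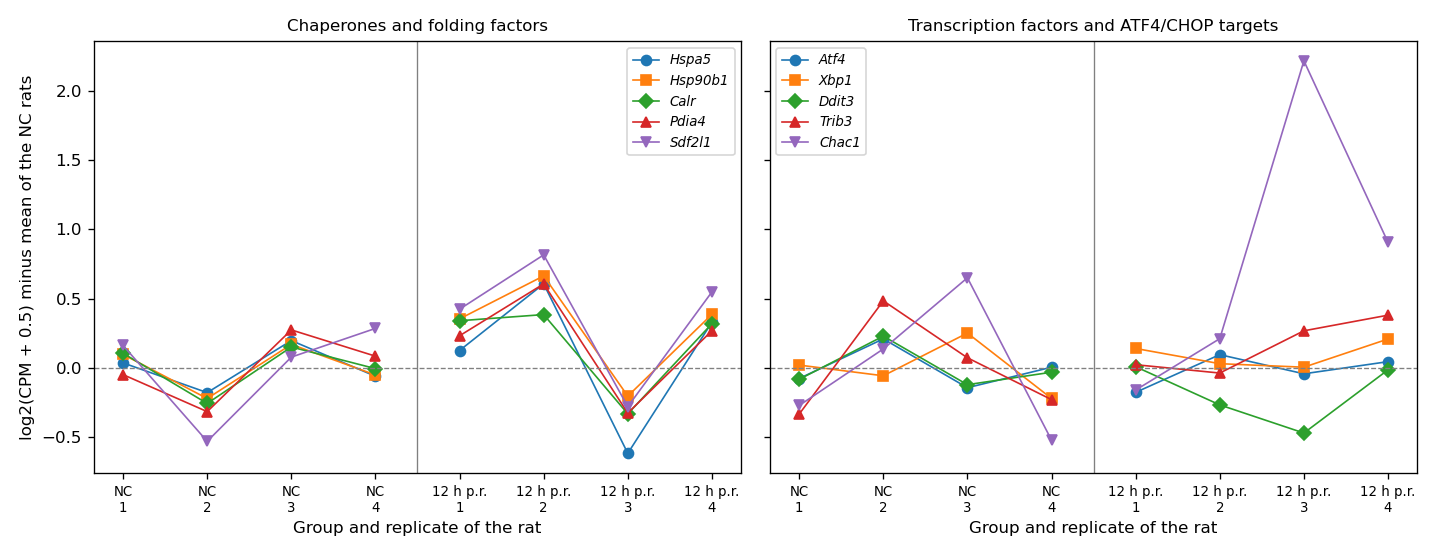
Level of each gene in each rat as log2(CPM + 0.5) minus the mean of the 4 NC rats, for the 5 chaperones and folding factors (left) and the other 5 genes (right), with NC rats before and 12 h p.r. rats after the vertical line. The 5 chaperones form 1 bundle that is lowest in running rat 3 among the running rats and in NC rat 2 among the NC rats, while *Atf4* and *Xbp1* stay near 0 and *Chac1* peaks in running rat 3.

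The marker levels of the same rats are given beside this pattern. The mean log2 level of the 10 tenocyte markers was 9.92, 10.2, 8.96, and 10.2 in the running rats and 9.66, 9.58, 9.90, and 9.26 in the NC rats, so the running rats with high chaperones also had the highest tenocyte levels. The mean over the 8 measured muscle markers was 8.4, 6.81, 12.6, and 8.28 after running and 8.47, 9.74, 10.2, and 5.98 in NC. Both rats lowest in the chaperones, running rat 3 and NC rat 2, had the lowest mean leukocyte level, 5.42 and 5.68 against 6.35 to 7.14 in the other 6 rats. The other 3 NC rats were above the other 3 running rats in that level, at 6.94 to 7.14 against 6.35 to 6.86. Running rat 3 and NC rat 2 also had the highest mean adipocyte level of their groups (9.54 and 9.67), and running rat 2, the highest in the chaperones, had the lowest of all 8 rats (8.20). Running rat 1 and NC rat 1 were close to the highest, at 9.45 and 9.57, with chaperone means of 0.30 and 0.07. Whether the adipocyte level goes with the chaperones was not tested. Of the 5 plasma cell markers, a cell type best known for high BiP and XBP1, *Jchain*, *Mzb1*, *Pou2af1*, and *Tnfrsf17* were each below 1 CPM in every rat, while *Sdc1*, which other cells also express, had 56.5 to 131 CPM.

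With the tenocyte level as a covariate in edgeR, the log2 differences of the chaperones were -0.06 for *Hspa5*, 0.18 for *Hsp90b1*, 0.06 for *Calr*, 0.06 for *Pdia4*, and 0.22 for *Sdf2l1*. With the muscle level as the covariate they stayed close to those without a covariate, at 0.15, 0.33, 0.21, 0.22, and 0.43 in the same order. Their adjusted p in that edgeR fit was between 0.439 and 0.814. With the leukocyte level as the covariate instead, a fit added after the data were seen, they were 0.32, 0.47, 0.35, 0.39, and 0.69 in the same order, with the adjusted p of all 5 between 0.377 and 0.644. The smallest adjusted p of the tenocyte fit among these 5 was 0.635. Some of the tenocyte markers themselves differed between the groups. By edgeR, *Scx* (log2 difference 0.62), *Mkx* (0.78), and *Thbs4* (0.56) were higher at an unadjusted p under 0.05. Of all genes, 9.51% reached it in either direction. *Comp*, *Col1a2*, and *Dcn* were fitted higher and *Tnmd*, *Fmod*, *Col1a1*, and *Kera* lower, none at that threshold. The tenocyte fit therefore cannot separate tenocyte content from a difference of its markers after running. Whether cell content or the level per cell sets the differences of the chaperones was not tested.

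Without running rat 3, the 5 chaperones had log2 differences of 0.36 for *Hspa5* (SE 0.15, adjusted p = 0.438), 0.47 for *Hsp90b1* (SE 0.14, adjusted p = 0.380), 0.34 for *Calr* (SE 0.13, adjusted p = 0.416), 0.36 for *Pdia4* (SE 0.16, adjusted p = 0.445), and 0.58 for *Sdf2l1* (SE 0.19, adjusted p = 0.402 by edgeR). All 5 were thus at an unadjusted p under 0.05 and higher, as were 5.78% of all genes in that fit, while the other 5 members were not. None passed after adjustment over all genes. *Hsp90b1*, *Calr*, and *Sdf2l1* were then higher in all 3 running rats than in any NC rat, as were 6.09% of all genes. This rat was left out because its summed muscle markers stood apart. Its mean log2 muscle level was not flagged by the check for rats far from the rest of their group, given below. It was also the running rat lowest in each chaperone, so the fit with all 8 rats stands as the result.

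**Figure D3:**
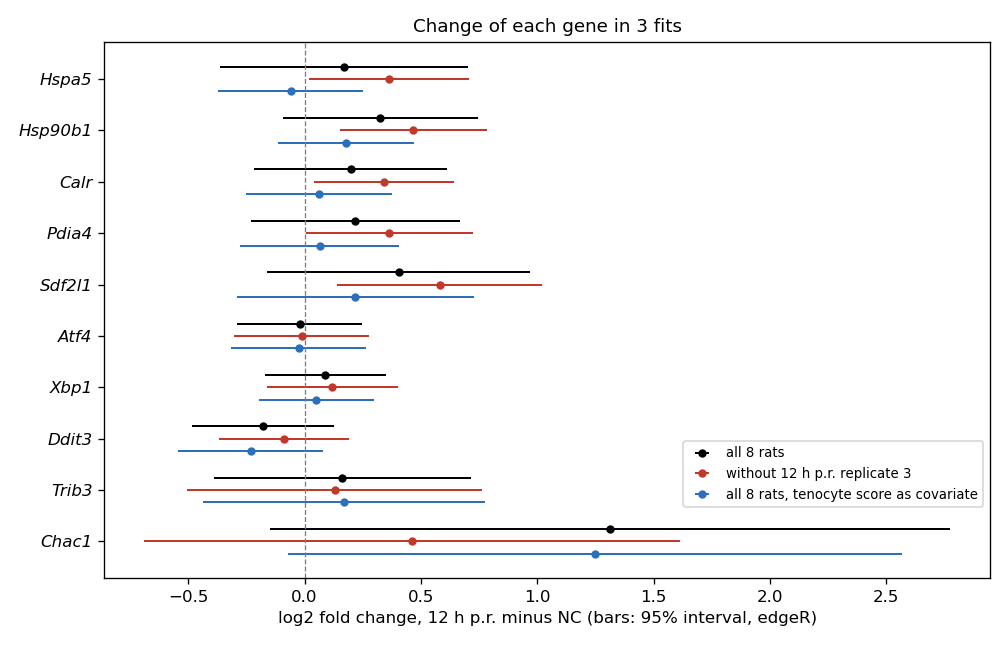
Log2 fold change (12 h p.r. minus NC) of each gene with its 95% interval from edgeR, for all 8 rats (black), without 12 h p.r. rat 3 (red), and for all 8 rats with the tenocyte level as a covariate (blue). With all 8 rats every interval includes 0, both without and with the covariate. Without rat 3 and without the covariate, the intervals of the 5 chaperones lie above 0. No fit combines the covariate with leaving out rat 3.

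Of the 66 other genes listed for the same pathway, 61 were tested, 30 fitted higher and 31 lower with a median log2 difference of -0.01, and 0 had an adjusted p under 0.05 by edgeR. At an unadjusted p under 0.05 there were 2 higher and 3 lower, where 9.51% of all genes reached it. Without running rat 3 there were 5 higher and 1 lower with a median of 0.04, beside 5.78% of all genes higher and 5.32% lower in that fit, and again 0 at an adjusted p under 0.05. The 9 stress sensors and their proteases and relatives had 0 such genes and a median of 0.07 with all rats, with *Ern1* (IRE1) at 26.4 ± 1.87 CPM after running and 26.8 ± 2.28 CPM in NC, and *Atf6* at 47.2 ± 1.02 and 45.5 ± 5.99 CPM (SD, n = 4 each). The sensor *Eif2ak3* (PERK) had 37.5 ± 7.36 and 42.6 ± 2.97 CPM. These sensors were named after their values were seen. The other 3 kinases of eIF2 alpha had 0 such genes and a median of 0.11.

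Of the 18 other ER chaperones and folding enzymes, 8 were fitted higher and 10 lower (median -0.01), with 1 gene at an unadjusted p under 0.05 in each direction. Without running rat 3, 3 were higher and 0 lower at that threshold (median 0.07): *Creld2*, *Pdia6* (log2 difference 0.36, adjusted p = 0.404 by edgeR), and *Manf* (0.28, adjusted p = 0.447). With all rats, *Pdia6*, a disulfide isomerase, had a log2 difference of 0.28 (SE 0.14), and *Manf*, a secreted ER stress factor, one of 0.12 (SE 0.19). *Creld2*, a disulfide isomerase secreted under ER stress, had 37.0, 54.5, 23.1, and 45.2 CPM after running and 30.5, 25.1, 29.5, and 24.2 CPM in NC. As for *Calr*, 3 running rats were above and rat 3 was below all NC rats (log2 difference 0.55, SE 0.23, adjusted p = 0.507 by edgeR, and without rat 3 0.74, adjusted p = 0.331). Its window also holds the ERSE, in the opposite direction and with its first base at position -145, which is shown for that reason.
Creld2 (chr7:121789224-121789272, plus strand): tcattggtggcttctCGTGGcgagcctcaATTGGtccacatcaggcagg

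In this list, *Canx*, *Dnajc3*, and *Ero1b* also held the ERSE, and their log2 differences were -0.03, 0.09, and -0.16. So did *Derl3* of the degradation list, which had too few reads to be tested, making 5 of the 53 listed genes with a window. *Hspa13*, an HSP70 relative of microsomes, was lower at 67.1 ± 7.05 CPM after running against 78.2 ± 5.11 CPM in NC (SD, n = 4 each), with a log2 difference of -0.22 (SE 0.10, adjusted p = 0.524 by edgeR), which was -0.18 without running rat 3 and then had an unadjusted p above 0.05. *P4hb*, the shared subunit of prolyl 4-hydroxylase, had 715 ± 92.2 and 710.4 ± 44.8 CPM, and *Pdia3*, the partner of calreticulin, had 575 ± 106 and 560 ± 58.5 CPM (adjusted p = 0.989 and 0.961 by edgeR). *Pdia6*, *Manf*, *Canx*, *Dnajc3*, *Ero1b*, *Derl3*, *P4hb*, and *Pdia3* were named after their values were seen.

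Of the 13 genes of ER-associated degradation, 11 were tested, 4 fitted higher and 7 lower (median -0.07), with 0 higher and 1 lower at an unadjusted p under 0.05. That gene was *Herpud1*, which joins the complex that moves misfolded proteins out of the ER and is a classic target of the response. It had 80.1, 90.4, 73.4, and 85.1 CPM in the running rats and 92.2, 98.6, 103, and 98.5 CPM in NC. All running rats were below all NC rats (log2 difference -0.25, SE 0.09, unadjusted p = 0.0199, adjusted p = 0.453 by edgeR), in the direction opposite to that of the 5 member chaperones. The groups did not overlap in either direction for 6.06% of all genes tested, and *Herpud1* was named for its unadjusted p. Its window holds an ERSE-II in place of the ERSE, with its first base at position -124. *Dnajb11* and *Hyou1*, which hold 1 and 2 ERSE-II matches and were named after their values were seen, had log2 differences of -0.11 (SE 0.10) and 0.09 (SE 0.15).
Herpud1 (chr19:10614806-10614846, minus strand): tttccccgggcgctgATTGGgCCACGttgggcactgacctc

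Of the 23 genes of the ATF4 and CHOP branch, 20 were tested, 10 fitted higher and 10 lower (median -0.02), with 1 gene at an unadjusted p under 0.05 in each direction. *Atf5*, a transcription factor induced by ATF4 and CHOP that also serves the mitochondrial stress response, had 642, 620, 541, and 708 CPM after running and 507, 475, 403, and 435 CPM in NC. All running rats, rat 3 included, were above all NC rats (log2 difference 0.46, SE 0.13, unadjusted p = 0.00607, adjusted p = 0.432 by edgeR). Groups without overlap in either direction were found for 6.06% of all genes tested, and *Atf5* was named for its unadjusted p. *Mthfd2*, the mitochondrial folate enzyme, had 11.9, 15.9, 7.02, and 14.4 CPM after running and 20.04, 13.0, 19.0, and 25.3 CPM in NC (log2 difference -0.66, SE 0.27, adjusted p = 0.498 by edgeR), and without rat 3 its difference was -0.46 with an unadjusted p above 0.05. Of the amino acid genes, named after their values were seen, *Asns* differed by -0.12 (SE 0.26), *Psat1* by -0.04 (SE 0.24), *Phgdh* by 0.38 (SE 0.35), and the transporter *Slc7a5* by -0.50 (SE 0.24).

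Levels of different genes were compared per length, as FPKM over all 8 rats (mean ± SD, n = 8). *Calr* was the highest at 441 ± 78.1 FPKM, rank 208 of the 13937 genes tested. It was followed by *Hspa5* (223 ± 53.7), *Atf4* (172 ± 15.6), *Hsp90b1* (145 ± 31.6), *Xbp1* (109.0 ± 11.2), and *Pdia4* (67.5 ± 14.8 FPKM). Lower still were *Ddit3* (31.5 ± 4.47), *Sdf2l1* (18.7 ± 5.54), *Trib3* (2.27 ± 0.498), and *Chac1* (1.27 ± 1.29 FPKM), the last at rank 12471. *Ddit3*, *Trib3*, and *Chac1*, the genes tied to prolonged stress, thus had lower means than the other 7 genes with the exception of *Sdf2l1*, which lay between *Ddit3* and *Trib3*.

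Each gene was compared with its neighbor in this order within the same rat by an exact 2-sided sign-flip permutation test of log2(FPKM + 0.1), whose smallest possible p over 8 rats is 0.00781. Of the 9 neighbor pairs, 7 differed with an adjusted p of 0.0141 or 0.0201. The pairs and their directions were taken from the means of the same values, so the test is no independent support for the order. *Hspa5* and *Atf4* did not pass (higher *Hspa5* in 6 of 8 rats, mean log2 ratio 0.34 ± 0.38 SD, adjusted exact permutation p = 0.0615). *Atf4* and *Hsp90b1* did not either (higher *Atf4* in 6 of 8 rats, mean log2 ratio 0.27 ± 0.35 SD, adjusted exact permutation p = 0.0781).

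**Figure D4:**
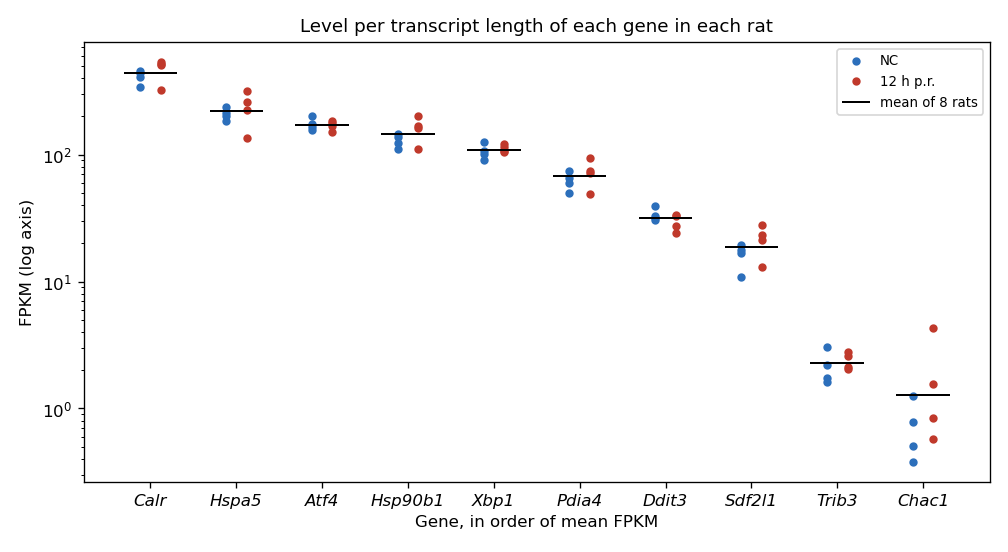
FPKM on a log axis of the 10 genes in order of their mean over the 8 rats (black line), with NC rats in blue and 12 h p.r. rats in red. The genes span from 441 FPKM for *Calr* to 1.27 FPKM for *Chac1*, and the points of *Hspa5*, *Atf4*, and *Hsp90b1* overlap.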

How the data were processed

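Groups and replicate numbers were taken from the labels. Per the labels and methods, stranded reads were aligned by HISAT2 2.1.0 (Rnor_6.0), and featureCounts 1.6.3 assigned them to genes. The counts deposited by the authors are unnormalized whole numbers. Whether the counting used the strand, and how reads matching several genes were treated, is not given in the sources used here. The FPKM values deposited by the authors scale each rat's counts by a factor equal to its DESeq2 size factor, and by length. The deposited table of the authors' own comparison (log2 fold changes, p-values, and adjusted p-values) was not used.

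Counts were filtered with filterByExpr, scaled by TMM, and compared with the quasi-likelihood test of edgeR 4.0.16 (Benjamini-Hochberg over 13937 genes, R 4.3.3); SEs were taken from its F statistic. Alternatives used DESeq2 1.42.0, limma 3.58.1 on log2(FPKM + 1) and log2(FPKM + 0.1), other scalings and filters, covariates, and left-out rats. Exact permutation tests were run in Python 3.11.15 with scipy 1.17.1. The edgeR and DESeq2 fits were also run on simulated counts. These held no rat that stood apart and no difference in cell content, so they do not show how the fits behave with such rats. Each rat is a separate sample, and rats of a group differed beyond counting noise (chi-square per degree of freedom of at least 17.2).

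The 10 members and the pathway and marker lists were chosen with earlier results of these data known. Named genes are the 10 members and, per pathway list and direction, up to 3 genes with the largest log2 fold change among those at an unadjusted p under 0.05; any other was named after its values were seen. Marker levels are the mean log2(CPM + 0.5) of a list. Promoter windows came from RefSeq, build GRCr8, matched by symbol; this is not the build of the counts.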

Additional observations from a re-analysis of the deposited data

Results flagged for a closer look

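Among the 36 sets of 4 rats checked for a rat far from the other 3, 4 held one, where chance flags about 5% of such sets. *Calr* in 12 h p.r. rat 3 was at a log2(CPM + 0.5) of 9.25, below the other running rats at 9.90 to 9.97. The mean log2 level of the cartilage or bone markers was 6.14 in 12 h p.r. rat 1 against 1.73 to 2.47 in the other running rats. The same markers were at 6.91 in NC rat 3 against 2.30 to 2.64 for the rest of that group. The mean log2 level of the leukocyte markers was 5.68 in NC rat 2 where the rest of NC lay at 6.94 to 7.14. The part of these marker levels in the results above was not tested, other than by the leukocyte covariate given with the chaperones.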

How the results depend on the processing

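None of the 10 genes passed an adjusted p of 0.05 in any of the alternatives run (smallest 0.377), and 4 of their 200 alternative fold changes turned direction. *Hspa5* turned to -0.060 with the tenocyte covariate, and leaving out 1 rat moved it between -0.0061 (without 12 h p.r. rat 2) and 0.36, and *Atf4* between -0.070 and 0.055 (0.028 without 12 h p.r. rat 1, 0.055 without NC rat 2). The number of the 10 genes at an unadjusted p under 0.05 went from 0 to 1 with DESeq2 and with the replicate block (*Chac1* in both), to 2 with the muscle covariate (*Chac1* and *Sdf2l1*), to 4 with the leukocyte covariate, to 5 without both rats numbered 3, and to between 0 and 5 without 1 rat (5 without 12 h p.r. rat 3). Their median of 0.19 became 0.064 with the tenocyte covariate, 0.33 with the leukocyte covariate, 0.41 without both rats numbered 3, and 0.12 to 0.35 without 1 rat. For the other pathway genes the count went from 5 to 9 with the tenocyte covariate, to 8 without both rats numbered 3, and to between 3 (without 12 h p.r. rat 1 or 4, or NC rat 1 or 3) and 7 without 1 rat. Over all genes, the count at that threshold was 1326 of 13937 in the main fit and 1361 of 20945 with DESeq2. It was 974 with the replicate block and 1406, 1527, and 1197 with the muscle, tenocyte, and leukocyte covariates, each of 13937. Without both rats numbered 3 it was 1507 of 13950. Without 1 rat it lay between 879 of 14007 and 1580 of 14236. The 4 relations with *Hspa5* that passed became 0 without its 2 farthest rats, with r of 0.75 to 0.92 over the 6 left. Among the other genes, r then rose from 0.40 to 0.83 for *Xbp1* and turned from -0.45 to 0.69 for *Chac1*. It fell from 0.19 to -0.61 for *Ddit3* and from 0.04 to -0.51 for *Atf4*. The leukocyte covariate was chosen after seeing the data; the cause of these shifts was not tested. Rats with the same number gave no sign of deviating together (r from -0.20 to 0.13, beside -0.31 to 0.34 for different numbers). Whether they were handled together cannot be told from these values. With 4 rats a group and 7 to 57 reads per rat, *Chac1* has the widest interval of the 10 genes.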
